A study of Mus musculus with 5 samples.

Results

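Opn1sw, Opn1mw, Gnb3, Thrb and Arr3 are genes of the cone photoreceptor, the retinal cell of daylight and colour vision. They were taken as all spots whose single gene symbol in the array's annotation is one of these 5 names, which gave 7 of the 17328 spots. Opn1sw, Opn1mw and Gnb3 had 1 spot each, and Thrb and Arr3 had 2 each. The data were 5 dual-colour spotted arrays of mouse retina in a series on retinal explants, that is, retina kept in culture. On every array channel 1 carried total RNA of wild-type mice and channel 2 that of mutant mice, labelled Rb-. Rb is the retinoblastoma protein, which restrains entry into S phase. The sources used here do not give the allele, any Cre line, the age, the time in culture or the number of animals behind each array. The arrays form a single group of 5 replicates, numbered 1 to 5 in order of deposition. Nothing says that they came from separate animals or cultures, so p-values reflect how much the arrays varied, which can be technical variation alone.

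Each value is a log2 ratio of the 2 channels, centred so that the median spot of its array lies at 0. The labels name no dye for either RNA and do not say whether the deposited ratios keep the scanner's order, so the direction is not settled. Values are given as deposited, and neither sign is assigned to the mutant. Since all arrays carry the same labels, a dye effect on a spot and a difference between the RNAs cannot be told apart. In whole retina, fewer cones, less RNA per cone and RNA of the same gene from other cells also cannot be told apart. A ratio holds no level, so the labelled tissue could not be checked against its markers, and levels of different genes are not compared. Rb1, the targeted gene, stood at -0.065, 0.20, -0.23, 0.043 and -0.081 log2 on the 5 arrays by its spot measured on all of them, and its other spot stood at 0.95, 2.06, -1.33 and 1.72 on arrays 1, 2, 3 and 5. Whether the allele alters the RNA under either spot is not known here, so neither checks the labels.

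Usable ratios numbered from 12444 to 13145 per array. The arrays differed in spread, with a scaled median absolute deviation of 0.97 log2 units on arrays 1 and 3 and from 0.48 to 0.63 on the others, so sizes are not directly comparable between arrays. Of 10036 probes measured on at least 4 arrays, limma called 0 at a Benjamini-Hochberg adjusted p under 0.05 (0%), with 1146 (11.4%) at an unadjusted p under 0.05. The unmoderated per-probe test also called 0.

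Cones catch light with opsins. Opn1sw encodes the short-wavelength opsin and Opn1mw the medium-wavelength opsin, and many mouse cones make both, in proportions that change from the dorsal to the ventral retina. Light-activated opsin acts on a G protein, transducin, whose beta subunit in cones is Gnb3. Arr3, cone arrestin, binds the activated opsin and ends its signal. Thrb encodes a thyroid hormone receptor. Its retinal form is required for expression of the medium-wavelength opsin and holds back the short-wavelength opsin. In the developing mouse retina Opn1sw appears earlier than Opn1mw, and cones form earlier than most rods.

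The sequences upstream of these genes are shown as a description, and their part in the ratios was not tested. RefSeq promoter windows of build GRCm38.p6 were at hand for 4 of the 5 genes, all but Gnb3, with 2 start sites for Thrb. The 250 bases before the start site used in that table are given 5′ to 3′ on the gene's strand, with capitals for GATTA or its reverse complement TAATC and for the longer GGATTA where it occurs. The windows lie at chr6:29380514-29380763 (minus strand) for Opn1sw, chrX:74127216-74127465 (plus) for Opn1mw, chrX:100605247-100605496 (plus) for Arr3 and chr14:17660710-17660959 (plus) for the first Thrb start. Both Thrb windows lie wholly within the RefSeq extent of that gene, as do the last 17 bases of the Arr3 window.
Opn1sw: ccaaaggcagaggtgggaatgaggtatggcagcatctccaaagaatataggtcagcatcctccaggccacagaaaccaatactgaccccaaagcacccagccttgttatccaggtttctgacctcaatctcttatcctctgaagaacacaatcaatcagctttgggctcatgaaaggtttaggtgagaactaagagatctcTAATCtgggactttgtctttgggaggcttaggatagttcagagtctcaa
Opn1mw: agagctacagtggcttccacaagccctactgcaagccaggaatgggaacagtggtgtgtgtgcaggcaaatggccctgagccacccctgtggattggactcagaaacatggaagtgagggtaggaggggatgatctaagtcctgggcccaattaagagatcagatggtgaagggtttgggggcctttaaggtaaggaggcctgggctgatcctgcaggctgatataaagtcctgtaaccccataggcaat
Arr3: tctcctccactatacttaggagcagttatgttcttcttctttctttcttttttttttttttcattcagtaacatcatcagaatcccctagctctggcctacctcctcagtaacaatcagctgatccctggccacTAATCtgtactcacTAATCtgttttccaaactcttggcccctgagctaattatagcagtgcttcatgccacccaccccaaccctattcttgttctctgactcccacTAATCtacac
Thrb: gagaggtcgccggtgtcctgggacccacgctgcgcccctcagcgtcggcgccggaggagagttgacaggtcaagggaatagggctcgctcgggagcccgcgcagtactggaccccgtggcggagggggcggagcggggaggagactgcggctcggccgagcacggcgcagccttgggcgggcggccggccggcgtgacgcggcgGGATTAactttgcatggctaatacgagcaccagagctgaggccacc

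GGATTA, searched on both strands, is a core sequence bound by the photoreceptor transcription factors Crx and Otx2. It occurred once in the first Thrb window and in none of the windows of Opn1sw, Opn1mw, Arr3 and the second Thrb start. Of 32851 mouse windows of the same length, 6.25% held it. The shorter GATTA, which lies within GGATTA and was chosen after the windows had been read, occurred 3 times in the Arr3 window, 1 of them within the annotated extent of the gene, 2 times in the second Thrb window, 1 time in that of Opn1sw and in the first of Thrb, and 0 times in that of Opn1mw. It was present in 19.8% of all windows, and 0.554% held it 3 or more times. The first Thrb window had a GC content of 71.6%, against 42.8% for Arr3, 46% for Opn1sw and 53.2% for Opn1mw. A match of letters is a description of the window and not of a bound site.

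Opn1sw gave the largest ratios of the 5 genes and separated the arrays most sharply. Its log2 ratio was -4.51 on array 1, 0.41 on array 2, -4.18 on array 3, 0.73 on array 4 and 0.33 on array 5. Arrays 1 and 3 lay far below 0 and arrays 2, 4 and 5 above it, with no value between -4.18 and 0.33. On array 1 only 0.592% of all usable spots other than controls had a lower ratio than Opn1sw, and on array 3 only 0.926%. On arrays 2, 4 and 5 it stood at percentiles 70.9, 79.7 and 62.0. The mean was -1.44 ± 2.66 (SD, n = 5), with a limma adjusted p of 0.518. An exact permutation test that flips the sign of whole arrays gave p = 0.500 (two-sided, as in all such tests here), and with 5 arrays it cannot go below 0.0625. With arrays 1 and 3 both left out the mean was 0.49.

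Opn1mw, the other cone opsin, was low on the same arrays but by less. Its log2 ratio was -1.69, 0.30, -1.56, -0.54 and -0.43 on arrays 1 to 5. Arrays 1 and 3 were again the lowest, at percentiles 9.46 and 11.0 of their arrays, and array 2 was the only array above 0. The mean was -0.78 ± 0.83 (SD, n = 5; limma adjusted p = 0.443; exact sign-flip p = 0.125). The difference between the opsins, Opn1sw minus Opn1mw, was -2.83, 0.11, -2.63, 1.28 and 0.76 on arrays 1 to 5. The short-wavelength opsin was thus the lower of the pair on arrays 1 and 3 and the higher on the others. The mean difference was -0.66 ± 1.93 (SD, n = 5; exact sign-flip p = 0.500).

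**Figure D1:**
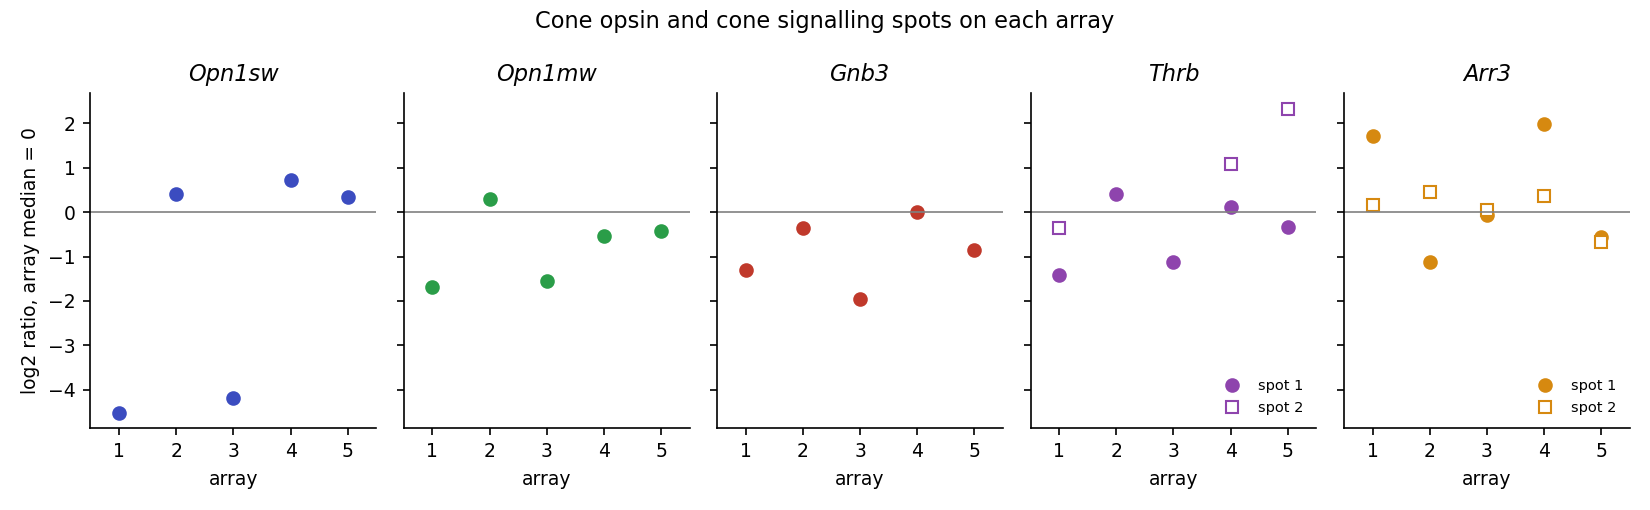
Log2 ratio of each spot (vertical axis, array median at 0) on arrays 1 to 5 (horizontal axis), a panel per gene, with filled circles for spot 1 and open squares for spot 2. Opn1sw lies at -4.51 and -4.18 on arrays 1 and 3 and above 0 on arrays 2, 4 and 5, while the 2 spots of Arr3 show no such pair of low arrays.

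Gnb3, the transducin beta subunit of cones, was at -1.30 log2 on array 1, -0.36 on array 2, -1.97 on array 3, 0.0095 on array 4 and -0.85 on array 5. Array 3 was the lowest, array 1 came next and array 4 lay close to 0. Its mean of -0.89 ± 0.78 (SD, n = 5) had the smallest p among these genes, 0.0410 unadjusted and 0.432 after adjustment in limma, with an exact sign-flip p of 0.125. Gnb3 was the only 1 of the 6 tested spots with an unadjusted p under 0.05, a threshold that 11.4% of all tested probes passed. After adjustment 0 of the 6 tested spots passed, against 0% of all probes.

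Thrb, the thyroid hormone receptor, was measured on all 5 arrays by its first spot, at -1.41, 0.40, -1.12, 0.12 and -0.33. Arrays 1 and 3 were the lowest here too, at percentiles 12.9 and 18.3. The mean was -0.47 ± 0.78 (SD, n = 5; limma adjusted p = 0.561; exact sign-flip p = 0.375). The second Thrb spot was measured on arrays 1, 4 and 5 only, at -0.37, 1.08 and 2.33, and lay above the first spot on each of them. The first minus the second spot was -1.04, -0.96 and -2.66. Both spots put array 1 lowest among the arrays they share, but the second had a positive mean, 1.01 ± 1.35 (SD, n = 3). It did not enter the main test, and with probes on at least 3 arrays admitted it gave a limma adjusted p of 0.545.

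Arr3, cone arrestin, did not share the low ratios of the opsins on arrays 1 and 3. Its first spot was at 1.71, -1.12, -0.066, 1.99 and -0.55 log2 on the 5 arrays, highest on arrays 1 and 4 and lowest on array 2. Its second spot had 0.17, 0.45, 0.037, 0.36 and -0.68, with array 5 as the only array below 0. On array 1, where Opn1sw stood near the bottom of all spots, the Arr3 spots stood at percentiles 84.6 and 55.3. The means were 0.39 ± 1.39 and 0.065 ± 0.45 (SD, n = 5 each), with limma adjusted p-values of 0.740 and 0.921. The 2 spots differed by 1.55, -1.57, -0.10, 1.63 and 0.13 (first minus second), and on array 2 they lay on opposite sides of 0. Their root mean square difference of 1.23 exceeded that of 66.3% of the 517 genes with 2 spots measured on all arrays, whose median was 0.87. The sign of the mean turned negative for both spots when the ratios were left uncentred, at -0.067 and -0.39, and for the second spot with the label factors, at -0.0077.

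Arrays 1 and 3 gave the 2 lowest ratios for 4 of the 6 spots measured on all 5 arrays, those of Opn1sw, Opn1mw, Gnb3 and Thrb. The same held for 30% of the 6753 probes measured on all arrays. This order had been seen before the genes were chosen, so the higher share among them is a description only. Ratios under -1 were found for 4 of 7 spots on array 1 (20.2% of all spots), 4 of 6 on array 3 (20.9%), 1 of 6 on array 2 (18%) and 0 of 7 on arrays 4 and 5 (19.9% and 12.3%). The share of spots under -4 was 0.944% on array 1 and 1.06% on array 3, and 0.138% of the spots measured on both lay under -4 on both. Opn1sw was the only 1 of the 5 genes in this set. By limits set after its values had been seen, under -4 on arrays 1 and 3 and above 0 on arrays 2, 4 and 5, 2 of the 6753 probes had this pattern (0.0296%), Opn1sw and a spot of Sag, the arrestin of rods.

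**Figure D2:**
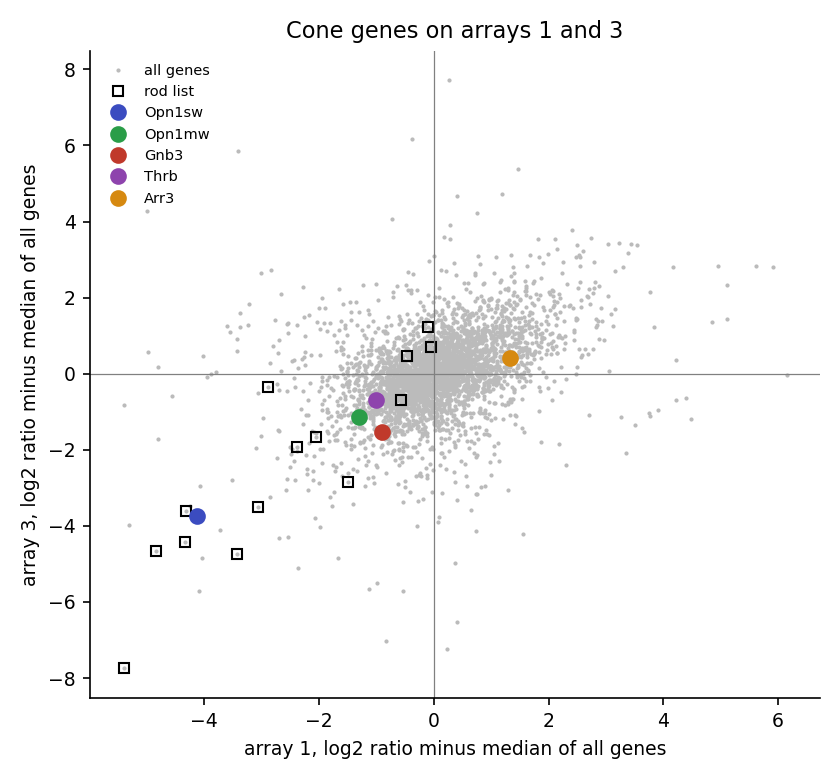
Log2 ratio minus the median of all genes on array 1 (horizontal axis) and array 3 (vertical axis) for 3739 genes (grey), the 14 measured genes of the rod list (open squares) and the 5 cone genes (coloured circles). Opn1sw lies at -4.12 and -3.75 among the rod genes, Opn1mw, Gnb3 and Thrb lie closer to the centre, and Arr3 lies above 0 on both arrays.

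The median of all 3739 genes with a spot on every array was itself off 0, at -0.39, 0.007, -0.43, 0.13 and -0.27 on arrays 1 to 5. Relative to it, Gnb3 was below on all 5 arrays, at -0.91, -0.37, -1.54, -0.12 and -0.58. This difference had a mean of -0.70 ± 0.55 (SD, n = 5) and an exact sign-flip p of 0.0625, which became 0.313 after adjustment over the 5 genes. Opn1mw and Thrb were below on 4 arrays, with means of -0.59 ± 0.66 and -0.27 ± 0.57. Opn1sw had a mean of -1.25 ± 2.45 and was below on 2 arrays, and Arr3, as the mean of its spots, had 0.42 ± 0.77 and was above on 3 (SD, n = 5 each). Adjusted exact permutation p-values ran from 0.313 to 0.500. With 5 arrays none of these could pass, since p cannot go below 0.0625.

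The genes differed in how they stood to rods, the photoreceptors of dim light. Over the 14 rod genes measured on all arrays the median log2 ratio was -3.02, 0.032, -2.82, -0.42 and 0.057. Opn1sw minus that median was -1.49, 0.38, -1.37, 1.16 and 0.28 on arrays 1 to 5. On arrays 1 and 3 Opn1mw minus that median was 1.33 and 1.26, Gnb3 1.72 and 0.85, Thrb 1.61 and 1.70, and Arr3 3.96 and 2.80. So on these arrays the short-wavelength opsin was the only gene of the 5 beyond the rod median. Over all 5 arrays the mean difference from the rod median ran from -0.21 ± 1.16 for Opn1sw to 1.46 ± 1.998 for Arr3 (SD, n = 5). Exact sign-flip tests gave adjusted p from 0.625 to 0.813, and with 5 arrays they cannot go below 0.0625. These means rested on arrays 1 and 3. For Arr3 the mean was 0.94 without array 1 and 0.19 without both arrays, and for Thrb it went from 0.77 to 0.18 without both. With arrays left out, the rod median was taken anew over the rod spots measured on all arrays kept, so its spots and genes can differ.

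**Figure D3:**
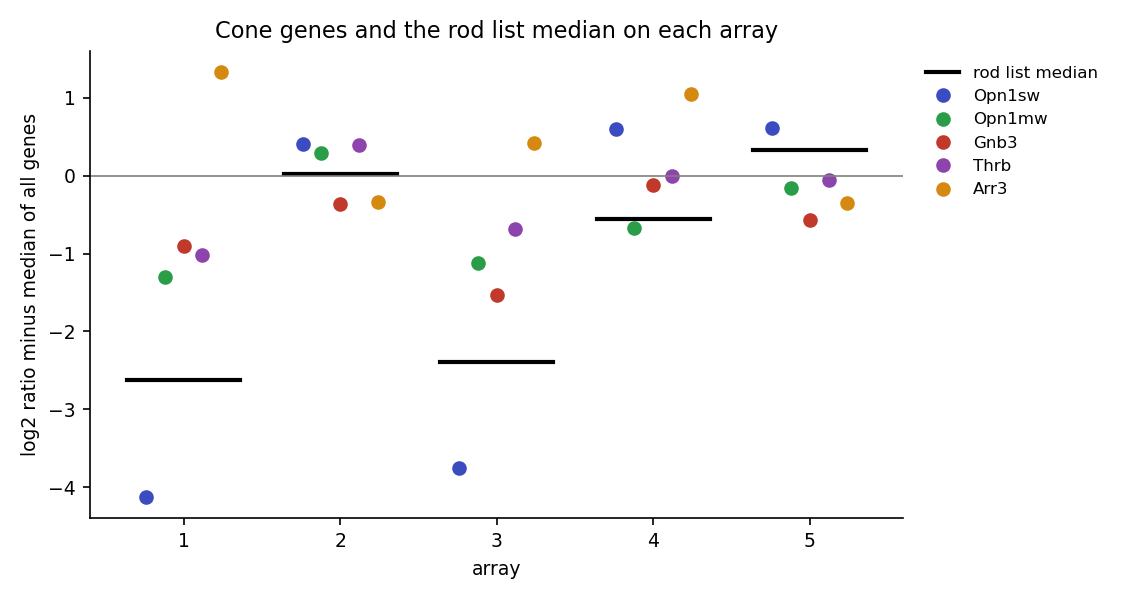
Log2 ratio minus the median of all genes (vertical axis) on arrays 1 to 5 (horizontal axis) for the 5 cone genes (circles) with black bars at the median of the rod list, 14 genes. On arrays 1 and 3 Opn1sw lies below the rod bar and the other 4 genes above it.

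The genes were also set against each other within arrays, in 10 pairs. Opn1mw lay below Thrb on all 5 arrays, with differences of -0.28, -0.10, -0.44, -0.67 and -0.097 and a mean of -0.32 ± 0.24 (SD, n = 5). Gnb3 lay below Arr3 on all 5, with Arr3 as the mean of its spots. The differences were -2.24, -0.026, -1.95, -1.16 and -0.23, with a mean of -1.12 ± 0.99 (SD, n = 5). Both pairs gave the smallest exact permutation p that 5 arrays allow, 0.0625, and 0.313 after adjustment over the 10 pairs. Against the first Arr3 spot alone, Gnb3 was not below on every array. On array 2 Gnb3 was at -0.36 and that spot at -1.12. The mean difference was then -1.29, with an adjusted exact permutation p of 0.625. Opn1mw minus Gnb3 had the mean nearest to 0, 0.11 ± 0.54 (SD, n = 5), but its values took either sign and spread more than those of Opn1mw minus Thrb. Opn1sw minus Arr3 had the widest range, from -5.45 on array 1 to 0.95 on array 5. The order of the genes therefore changed between arrays. Opn1sw was the lowest of the 5 on arrays 1 and 3 and the highest on arrays 2 and 5, Arr3 was the highest on arrays 1, 3 and 4, and Gnb3 was the lowest on arrays 2 and 5.

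**Figure D4:**
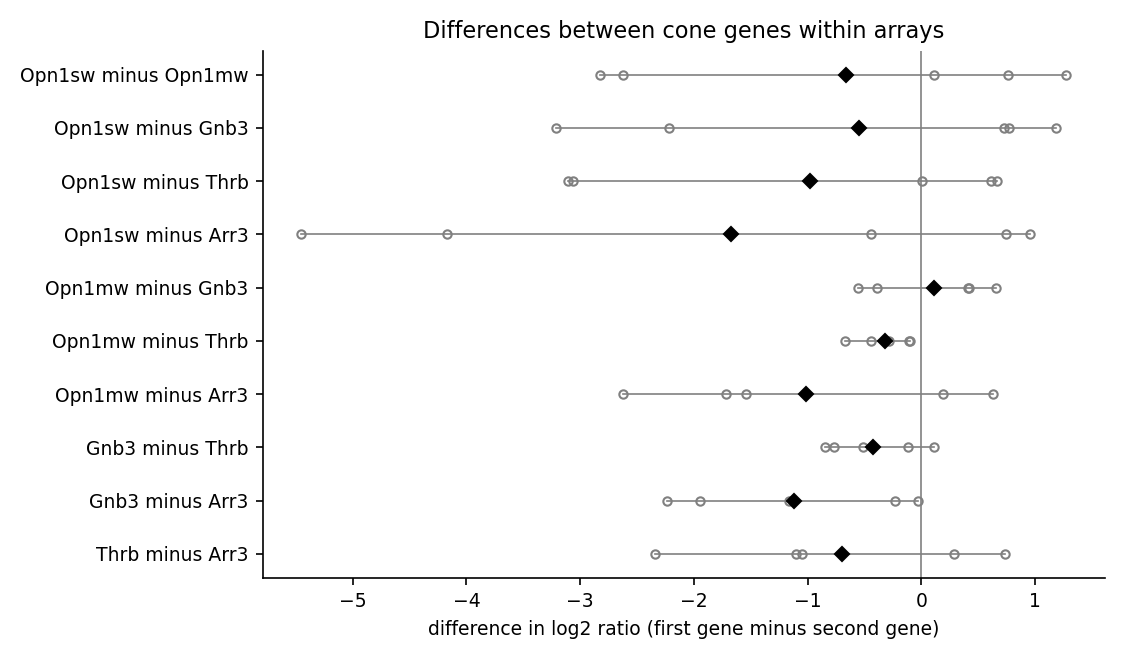
Difference in log2 ratio between the genes of each pair (horizontal axis, first gene minus second) for the 10 pairs (vertical axis), with open circles for the 5 arrays, a line over their range and a diamond at their mean. The 5 circles lie on 1 side of 0 for Opn1mw minus Thrb and for Gnb3 minus Arr3, with Arr3 as the mean of its spots.

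The labels give focus position 10 for the scans of arrays 1, 2 and 3 and focus position 0 for arrays 4 and 5. Relative to the median of all genes, Opn1sw had a mean of -2.49 within the first scan group and 0.61 within the second. Opn1mw had -0.71 and -0.42, Gnb3 -0.94 and -0.35, Thrb -0.43 and -0.034, and Arr3 0.47 and 0.35. Array 2 belongs to the first group and did not share the low opsin ratios of arrays 1 and 3. The part of the scan in these ratios was not tested.

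The genes whose ratios over the 5 arrays were nearest to those of each spot were found among 4419 spots of other single genes measured on all arrays (4418 for Arr3), by the root mean square difference in log2 ratio. Nearest to Opn1sw was Sag, at 0.24, with -4.32, 0.39, -3.93, 0.29 and 0.35 on arrays 1 to 5. All 3 spots of Sag measured on every array were low on arrays 1 and 3, from -5.39 to -3.68. A Sag spot measured on arrays 2 and 3 only was at 0.81 on array 3. Next came Gpat4, an enzyme of glycerolipid synthesis, at 0.48, and Tulp1, a photoreceptor protein of the tubby family, at 0.56. The 3 nearest to Opn1mw were Epb41l2, Cc2d2a and Fryl (0.11 to 0.16), those to Gnb3 were Gpr153, Csdc2 and Sdf2 (0.10 to 0.17), and those to the first Thrb spot were Magef1, Atp6ap2 and Tmem39b (0.11 to 0.15). The first Arr3 spot was nearest to Sfxn1, Tspo and Nrbp2 (0.37 to 0.53) and the second to Prxl2c, Rngtt and Rap1b (0.13 to 0.14). No gene was shared between these sets. With 3 genes each out of 4418 or 4419 spots, that is no measure of how far the spots differed.

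Of 25 further genes listed for cone phototransduction and cone cells, 17 had a spot and 8 were measured on all 5 arrays. Relative to all genes, the median of these 8 stood at -0.77, -0.048, -0.88, -0.39 and 0.071 on arrays 1 to 5, and 7 of the 8 lay below all genes on array 1 against 4 on array 3. Gnat2, the transducin alpha subunit of cones, had -0.94, -0.05, 0.035, 0.33 and 0.69 relative to all genes and so was low on array 1 without being low on array 3. Pde6h, the inhibitory subunit of the cone phosphodiesterase, had 0.35, 0.38, -1.80, 0.39 and -0.38 and was low on array 3 but not on array 1. Neither gene was low on both arrays, as Opn1sw was.

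Rp1, a microtubule protein of the outer segment in both rods and cones, was low on both arrays, with -3.72, 0.58, -4.10, -0.45 and -0.15. Ccdc136 had -1.80, -0.046, -3.24, -0.33 and -0.25. Cacna1f, a calcium channel of the photoreceptor synapse, had -0.89, 0.28, -2.12, -0.02 and 0.75 by its spot on all arrays. Its other spot, unusable on array 1, did not share the low value of array 3. Without subtraction of the median, that spot was at -2.499 on array 2, 1.35 on array 3, 1.49 on array 4 and 1.04 on array 5. Relative to all genes, Cacna2d4, an accessory subunit of calcium channels, had -0.65, -1.02, 2.30, -1.17 and -1.61 by its spot on all arrays. Its other spots did not share the low values of arrays 2, 4 and 5. Without subtraction of the median, a spot was at -1.87, 0.49, 0.45 and 0.086 on arrays 1, 2, 4 and 5. Another, usable on array 2 only, was at 3.85. Guca1b and Gucy2f, which serve cyclic GMP synthesis and are in the rod list as well, were lowest on array 4, at -2.11 and -2.47 relative to all genes.

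The other 9 genes of this list were measured on fewer arrays. Cabp4, a calcium sensor of the photoreceptor synapse, Guca1a, an activator of guanylate cyclase, and Rcvrn, recoverin, stood at -4.43, -4.37 and -4.43 log2 on array 1 and had no usable value on array 3. These 3 are grouped here because of their array 1 values. On arrays 2, 4 and 5 Cabp4 had 0.65, 0.12 and 0.55, Guca1a 2.25, 0.45 and -0.035, and Rcvrn -0.37, -0.87 and -0.53. Among the other genes, a single spot of Rbp3 was as low on array 1. Rdh12, a retinol dehydrogenase, had 2.60 there, Rgs9bp 1.49 and Gnb5 -1.37, and the 4 spots of Rbp3, the retinoid-binding protein between photoreceptors and pigment epithelium, had -5.54, 0.33, 1.23 and 2.34. Kcnv2, a potassium channel subunit, and Gucy2e, a guanylate cyclase, had no usable value on array 1, and on array 3 they had 2.21 and 1.55. Of the 18 tested spots of the list limma called 0, with 1 at an unadjusted p under 0.05, that of Rgs9bp, an anchor of the complex that shuts off transducin, with a mean of 2.15 ± 1.33 (SD, n = 4; limma adjusted p = 0.409).

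Of 27 genes of cone fate and thyroid hormone signalling, 15 had a spot and 8 were measured on all arrays. Relative to all genes, the median of these 8 stood at -0.77, 0.24, 0.21, 0.16 and 0.46, low on array 1 alone. Rorb, a nuclear receptor needed for the short-wavelength opsin, had -0.78, 0.29, 0.27, 0.66 and 1.07 relative to all genes. Crx, which switches on rod and cone genes, had -0.77, 0.61, 0.16, 0.66 and 1.03 by its spot on all arrays, and its other spot, on 4 arrays, had a mean log2 ratio of -1.34 ± 1.25. Nrl, the rod-specifying factor, had -3.06, 0.19, -3.49, 0.10 and -0.005 by its spot on all arrays. Its other spot, unusable on arrays 1 and 3, was at 0.35, 0.11 and 2.41 log2 on arrays 2, 4 and 5. Of the 8, Nrl and Prdm1 were below all genes by over 1 log2 unit on both arrays 1 and 3. Prdm1, at -1.13, -1.98, -1.025, -0.49 and 2.55 on arrays 1 to 5, was lowest on array 2, unlike Nrl.

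Ncoa2, a coactivator of nuclear receptors, had the smallest p of the fate list, with log2 ratios of 0.81, 2.23, 1.61 and 1.37 on arrays 1, 2, 3 and 5, a mean of 1.504 ± 0.59 (SD, n = 4) and a limma adjusted p of 0.409. It was the only 1 of the 18 tested spots of the list with an unadjusted p under 0.05, and 0 passed after adjustment. Crx, Tbx2, Nrl and Onecut2 came next in p, each by its spot with the smallest p. For Tbx2 that spot had a mean of -0.64 ± 0.62 (SD, n = 5; limma adjusted p = 0.450), while its other spots had means of 0.24 and 0.38. For Onecut2 it had a mean of -0.44 ± 0.40 (SD, n = 5; limma adjusted p = 0.486), while its other spots had means of 0.51 on 5 arrays and 1.89 on 2. As the mean of their spots on all arrays, Tbx2 and Onecut2 each lay above all genes on 4 of the 5 arrays.

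Among relatives of the 5 genes, only Gnb1 and Sag were measured on all arrays. Gnb1, the transducin beta subunit of rods and the counterpart of Gnb3, had -2.38, 0.25, -1.93, 0.068 and 0.37 relative to all genes. This mean of its spots on all arrays was lower than Gnb3 on arrays 1 and 3 and higher on the rest. Another Gnb1 spot, measured on arrays 1, 2 and 3 only, went the other way, at 1.34, -1.94 and 0.46 log2. On those arrays Gnb3 had -1.30, -0.36 and -1.97 log2. Sag, the counterpart of Arr3, had -4.32, 0.68, -3.60, -0.23 and 0.61 as the mean of its spots, while Arr3 had 1.33, -0.34, 0.42, 1.04 and -0.35. Gnb2, a widely expressed beta subunit, had a mean log2 ratio of -1.06 ± 0.66 on 4 arrays (limma adjusted p = 0.432). Arrb1, a widely expressed arrestin, had 2.63 on array 3 and 6.10 on array 5. Rgr, an opsin of glia and pigment epithelium, had a first spot at 2.13, 0.49 and -2.92 on arrays 1, 3 and 4, while the second was at 0.50 on array 4 and 2.47 on array 5.

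Markers of other retinal cells were read on the same arrays. Of the 22 listed rod genes 14 were measured on all arrays, and relative to all genes their median stood at -2.63, 0.025, -2.39, -0.55 and 0.33, with all 14 below all genes on array 1 and 11 on array 3. Bipolar markers (3 of 8 listed) had -0.24 on array 1 and -0.74 on array 3, Muller glia (4 of 7) -0.63 and 0.46, and amacrine cells (3 of 6) -0.36 and -0.21. Ganglion cells (2 of 7) had -0.85 and -0.70. Progenitors (2 of 7) had 0.19 and 0.71, but the genes behind these medians went opposite ways. Ccnd1 stood at -1.235 and -0.89, and Pcna at 1.61 and 2.31. Of the progenitor genes measured on 4 arrays, Top2a was at 3.999 and 5.32 and Fgf15 at -0.133 and 0.369, without subtraction of the median. Relative to all genes, the Muller glia genes ran from -3.56 to 1.53 on array 1. Horizontal cells and microglia had 1 measured gene each, Lhx1 at 0.57 and -0.055 and C1qb at 0.83 and 0.89, and the pigment epithelium had 0. The part of cell composition in the ratios of the cone genes was not tested.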

How the data were processed

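The values were log2 ratios of the 2 channels, deposited by the authors. The labels state that GenePix Pro 4.1.1.29 read the spots at 635 and 532 nm, subtracted each spot's local background and normalized nothing. They do not state the dyes, any dye swap or the filter behind empty cells, and the log2 scale was read from the values. Values of 16.61, taken as a filler for a zero denominator, were set to missing, and each array was centred on its median. The 192 control spots of ACTB were left out of tests and percentiles. After centring, their median was 1.09, -2.10, 0.715, -0.30 and 0.047 log2 on arrays 1 to 5, highest on arrays 1 and 3. The cause of these differences between arrays was not tested.

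Probes on at least 4 arrays were tested against 0 with limma 3.58.1 (R 4.3.3; lmFit, eBayes, Benjamini-Hochberg over all probes, threshold 0.05). The code was tested on simulated data. Gene values were means of a gene's spots measured on all 5 arrays. Differences were tested with exact two-sided sign-flip permutation tests over the arrays. The number of arrays limits the precision. A single symbol was listed for 7722 spots besides the controls, and the 5 genes matched RefSeq entries of GRCm38.p6. Named were all spots of the 5 genes, the 3 nearest genes of each spot on all arrays, measured genes of the cone list, the 5 genes of the fate list with the smallest p, measured relatives and Rb1. Rorb, Prdm1 and the progenitor genes Ccnd1, Pcna, Top2a and Fgf15 fall outside this rule, picked with their values known. The genes and lists were chosen with earlier results of these data known.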

Additional observations from a re-analysis of the deposited data

Results flagged for a closer look

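In 1 of 30 results examined, 1 array lay far outside the range of the remaining 4, and chance alone marks about 1 in 20 (1.5 here). The median of the 8 measured genes of cone fate and thyroid hormone signalling, relative to all genes, was -0.77 on array 1, against 0.16 to 0.46 on the other arrays.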

How the results depend on the processing

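For 26 tested values, 322 alternative values were free to move, leaving out 78 that the setting cannot change (centring on a difference within an array, filter or test on a spot's mean). Of these 33 turned their sign. No spot mean passed the threshold in limma (smallest adjusted p 0.232). The differences were tested by sign flips, which cannot reach the threshold with 5 arrays or fewer, so their failure to pass says nothing. The counts of all probes and of cone probes past the threshold were 0 in every alternative that refitted the probes. With arrays 1 and 3 both left out, positive means were found for Opn1sw (0.49; 0.54 against all genes; 0.61 against the rod median) and Thrb (0.065; 0.11 against all genes). Negative ones were found against the rod median for Opn1mw (-0.11) and Gnb3 (-0.28). Opn1sw then lay above Opn1mw by 0.72, Gnb3 by 0.89, Thrb by 0.43 and Arr3 by 0.42. With only the arrays of focus position 0, Opn1sw had 0.53, 0.61 against all genes and 0.75 against rods. Thrb, whose second spot then enters, had 0.88 against all genes, and Opn1mw and Gnb3 had -0.27 and -0.20 against rods. The second Arr3 spot had -0.16. The differences were 1.02 for Opn1sw minus Opn1mw, 0.95 minus Gnb3 and 0.26 minus Arr3, -0.068 for Opn1mw minus Gnb3 and 0.52 for Thrb minus Arr3. Uncentred, the Arr3 spots had -0.067 and -0.39, and with the label factors the second had -0.0077. Leaving out each array in turn gave -0.0067 to 0.77 and -0.031 to 0.25 for the Arr3 spots, -0.57 to 0.21 for Opn1sw against rods, -0.98 to 0.11 for Opn1sw minus Gnb3 and -0.029 to 0.28 for Opn1mw minus Gnb3. Against rods Opn1sw turned positive without array 1 (0.21) or array 3 (0.068). Settings with fewer arrays tested fewer samples, and their gene values and medians were rebuilt from the spots measured on all arrays kept. In other respects the cause was not tested. No intensity was at hand, so signal over background could not limit the spots used.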
